A study of Mus musculus with 617 samples.

Results

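The cells described here are mouse epiblast stem cells, labelled Epi, in which the transcript of Zfp42 (Rex1, a zinc finger gene used as a marker of naive pluripotency) had been lost. They were chosen by a Zfp42 level below 1 FPKM (fragments scaled to transcript length and library size), and 64 cells met that rule, out of 447 cells of all kinds in the main table and 617 in the series. Of the 64, 63 were all the Epi cells of the male line and 1 came from the female line, whose other 78 Epi cells kept Zfp42. Single-cell RNA was measured by SMART-seq2, which primes on polyadenylated RNA, followed by Tn5 tagmentation. All cultured cells derived from 1 male and 1 female embryonic stem (ES) cell line, both of a hybrid genome (father CAST/EiJ, mother C57BL/6J). Epi cells were derived from both lines with Activin A and FGF2. They are set against ES cells of the same lines in serum and LIF, which comprised 52 male and 68 female cells. ES cells in 2i and LIF, and cells labelled motor neuron (made by way of embryoid bodies, retinoic acid and the agonist SAG), entered only the estimate of the spread. A separate female Epi culture of 7 passages (41 cells) and E5.5 epiblast of embryos (63 male and 20 female cells) were deposited in other tables, so their levels are given side by side without a test.

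As background, ES cells in serum and LIF resemble the epiblast before implantation, while epiblast stem cells resemble it after implantation and depend on FGF and Activin or Nodal signals. The step between them is known as the passage from naive to primed pluripotency. It involves the loss of naive factors such as Zfp42, Esrrb and Klf4, the gain of Fgf5 and Otx2, and readiness to turn on genes of the primitive streak, the site where mesoderm and endoderm form. Oct4 (Pou5f1) is shared by both states.

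Zfp42 (ENSMUSG00000051176, GRCm38 chr8:43295063-43306980, minus strand) chose the cells, so its values are a description only. It was listed at 0 in 50 of the 64 cells, and the 3 highest values among the chosen cells were 0.863, 0.739 and 0.692 FPKM. The 3 lowest values among the Epi cells left out were 1.91, 2.31 and 2.78 FPKM. Zfp42 averaged 89.1 FPKM ± 87.5 (SD, n = 52 cells) in male and 77.03 ± 78.8 (SD, n = 68 cells) in female serum ES cells, where only 1 male and 2 female cells lay below 1 FPKM. Splitting Epi cells on this gene therefore nearly split them by line and sex, and what belongs to the state and what belongs to the male Epi culture cannot be told apart.

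The named markers of the primed state were high in these cells, and 56 of 63 (88.9%) held all 4 of them at 1 FPKM or more, against 0 of 120 serum cells and 6 of the 78 Epi cells that kept Zfp42. Fgf5 (chr5:98254184-98277030, plus strand), which encodes a secreted FGF of the postimplantation epiblast, had a lowest value of 0.190, a median of 112.8 and a highest value of 429 FPKM. In serum its median was 0 in both lines, and the highest cell reached 10.8 FPKM in the male and 91.5 in the female line. Otx2 (chr14:48657677-48673819, minus strand), a homeobox factor of primed epiblast and anterior tissue, ranged from 0 to 578 FPKM with a median of 138.85. Its serum medians were 1.18 and 6.27 FPKM, but single serum cells reached 233.1 and 258.3, so the groups overlapped for Otx2 at the level of cells. T (chr17:8434423-8442496, plus strand), the brachyury gene of streak and early mesoderm, ranged from 0 to 690 FPKM with a median of 88.5, while the highest serum cells had 26.9 and 15.97. Mixl1 (chr1:180693043-180697034, minus strand), a homeobox gene of the streak, ranged from 0.585 to 3506 FPKM with a median of 403, and no serum cell exceeded 4.96. The 1 female cell had 148.9 FPKM of Fgf5, 117.7 of Otx2, 14.8 of T and 148.1 of Mixl1.

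**Figure D1:**
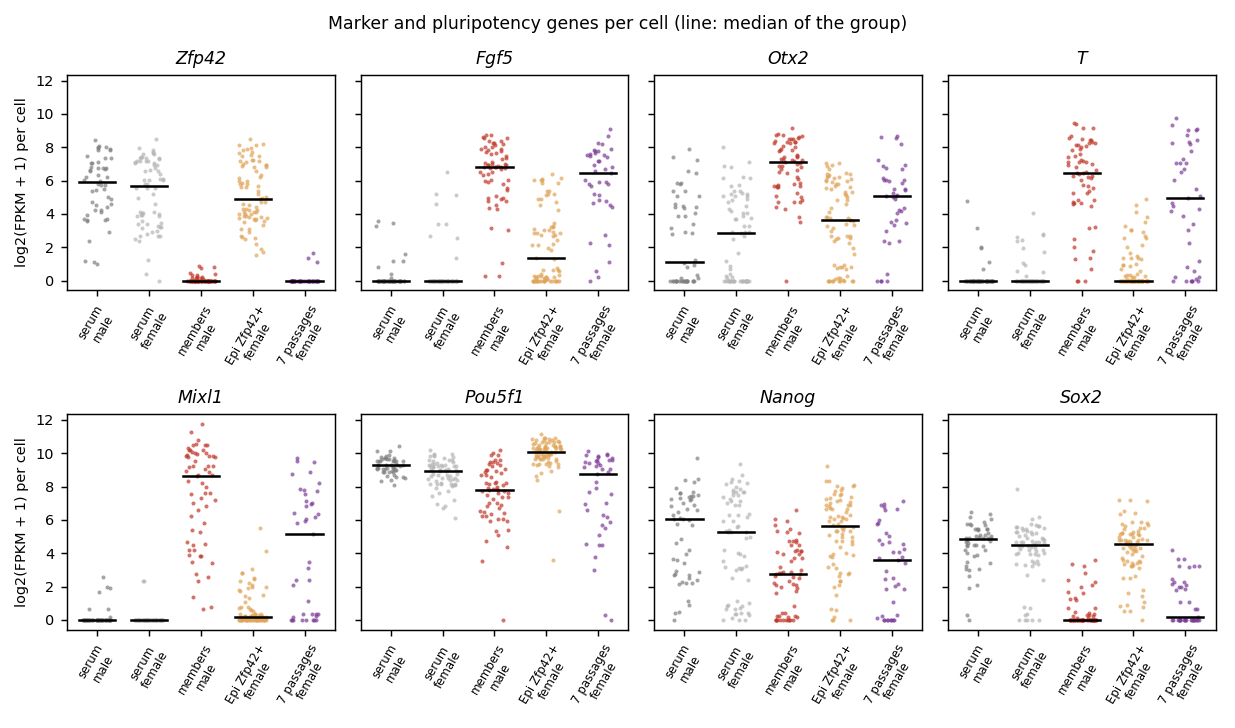
Each point is a cell, the vertical axis is log2(FPKM + 1), and the black line is the group's median, for serum ES cells of both lines, Zfp42-low Epi cells of the male line, Epi cells of the female line that kept Zfp42, and the 7-passage female Epi culture. Fgf5, T and Mixl1 have a median of 0 in both serum groups and medians of 112.8, 88.5 and 403 FPKM in the Zfp42-low cells, while Sox2 is listed at 0 in most of them.

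Of these 4 markers, Fgf5, T and Mixl1 passed the test described below and Otx2 did not, and other genes of the same state were low. Fgf5 entered that test only because it was high in the Zfp42-low culture. The same held for 8 of the 12 called genes of the streak list, which includes T and Mixl1. These passes are therefore a description. Sox2, which partners Oct4 in pluripotent cells, averaged 0.962 FPKM and reached 1 FPKM in 13 of 63 cells (20.6%, exact Clopper-Pearson 95% interval 11.5 to 32.7%). The POU factor Pou3f1 (Oct6) averaged 0.999 FPKM, below the 3.15 and 3.24 of serum cells, and the chromatin-associated factor Utf1 averaged 10.3 against 718 and 567 FPKM. The cells are therefore called Zfp42-low Epi cells here.

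To compare them with serum cells, the mean FPKM of each culture was taken, because cells of 1 culture are not replicates. The male Zfp42-low cells were 1 sample, serum ES cells were 2 (1 per line), and the spread came from the states with both lines, so the lone sample was assumed to vary like the others. The p-values measure the spread between cultures, and line and sex are the same factor. Changes were taken on log2(mean FPKM + 1), a scale that shrinks those of low genes, and a gene was called when its limma adjusted p was under 0.05 and its log2 change was 1 or more in either direction. Of 15478 genes tested, 364 (2.35%) were called. In Zfp42-low Epi cells 221 of them (1.43% of the tested genes) were higher and the others (0.924%) lower, and the median log2 change over all tested genes was 0.09. Of the higher calls 39 were microRNA genes, and of the 364 called genes 11 lay on the X chromosome. The shares of microRNA and X-linked genes among all tested genes are not given here, so neither count is read as a result. Of the 221 higher calls, 46.2% passed the filter only through the Zfp42-low culture. With line as a block no gene was called: the smallest blocked limma adjusted p was 0.0529, and 85.4% of the 364 stayed under 0.1. No gene was called either when any of the 4 ES cultures was left out, in turn 2i female, 2i male, serum female and serum male, where the smallest adjusted p was 0.0694, 0.0600, 0.0957 and 0.0926. Leaving out the female or the male motor neuron culture instead called 4.59% and 4.60% of the tested genes higher and 3.26% and 3.22% lower. The direction of the calls depended on the scaling: 60.7% of them were higher with the FPKM as deposited, 66.4% after each cell was rescaled to the same sum and 50.1% after upper-quartile scaling.

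Depth per cell was not known, because FPKM values hold no counts here. Zfp42-low cells of the male line had a median of 9355 genes at 1 FPKM or more (7152 to 11165), against 9645 in male and 9443.5 in female serum cells. Their titles fell into a lower run of numbers (31 cells, median 8861 genes) and a higher run (32 cells, median 9919.5 genes), and the labels do not say what the runs are. With the lower runs alone 0.746% of tested genes were called higher and 0.432% lower, and with the higher runs alone 1.39% and 0.598%. Gm42418, a transcript that overlaps ribosomal RNA sequence, averaged 1723 FPKM in these cells, 1800 in the Epi cells that kept Zfp42, and 59381 and 51124 in serum ES cells, so it moved with the Epi label in both lines. Its part in other differences was not tested.

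Among protein-coding genes, the steepest rises included genes of the primitive streak and its signals. The 10 called protein-coding genes with the largest rise were Mixl1, Cyp26a1, Fgf8, Cer1, Aplnr, Lhx1, Mesp1, T, Snai1 and Gsc. The largest falls were of Spp1, Folr1, Cyct, Trap1a, Tdh, Dppa3, Mylpf, Fbxo15, Tex19.1 and Nr0b1, which include genes known from germ cells (Cyct, the testis cytochrome c) and from naive ES cells.

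All 18 streak and mesendoderm genes of the list had a higher mean in Zfp42-low than in serum cells. Of the 17 tested, 12 were called higher, against 1.43% of all tested genes. The filter on low values weighed on that count, since 10 of the 17, and 8 of the 12 called, averaged 1 FPKM over the cultures only through the Zfp42-low culture. A gene of that kind could enter the test only if it was high there, so the list's median log2 change of 4.87, against 0.09 over all genes, is a description. Mixl1 averaged 576 FPKM ± 669 (SD, n = 63 cells) against 0.275 and 0.118 in male and female serum cells, a log2 change of 8.92 (SE 0.40, limma adjusted p = 0.00639). Cyp26a1, which degrades retinoic acid, had a lowest value of 0.695, a median of 607 and a highest value of 1612 FPKM, and only 7 of 120 serum cells reached 1 FPKM. Its log2 change was 8.13 (SE 0.69, limma adjusted p = 0.0133). Lhx1, a LIM homeobox gene of the node and anterior mesendoderm, was at 2.03 FPKM or more in every one of the 63 cells and averaged 184.9, while it was listed at 0 in all 52 male serum cells and averaged 0.266 in the female ones. That was a log2 change of 7.37 (SE 0.56, limma adjusted p = 0.0119). T rose by 6.45 (SE 0.29, limma adjusted p = 0.00639), from 0.816 and 0.728 to 153.8 FPKM.

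The other streak genes called higher were transcription factors of mesoderm and endoderm. Mesp1, which marks the earliest heart-forming mesoderm, averaged 137.7 FPKM against 0.393 and 0. Gsc, the organiser gene goosecoid, averaged 72.9 FPKM against 0 and 0.187. Snai1, a repressor of E-cadherin at the streak, averaged 185.1 FPKM against 1.75 and 1.59. Eomes, a T-box factor that specifies definitive endoderm and cardiac mesoderm, averaged 45.2 FPKM against 0.827 and 0.361 and reached 1 FPKM in 62 of 63 cells. Tbx6 averaged 39.8 FPKM and Evx1 10.9, and both act in mesoderm of the streak. Foxa2, a pioneer factor of endoderm and axial mesoderm, averaged 11.8 FPKM but reached 1 FPKM in only 16 cells. Msgn1, a gene of presomitic mesoderm, was found at 1 FPKM or more in 12 cells and was listed at 0 in every serum cell. Of the 5 that were not called, Wnt3 averaged 34.5 FPKM against 0.476 and 0.845 (limma adjusted p = 0.116), Mesp2 29.2 against 1.92 and 2.32, and Hhex 29.1 against 5.72 and 3.46. The blocked adjusted p of the 12 called genes ran from 0.0529 to 0.107.

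Streak genes were present together in single cells. The 6 counted per cell were T, Mixl1, Eomes, Lhx1, Gsc and Mesp1, all called higher, so their contrast with serum is a description. Foxa2, Msgn1 and Tbx6, at 1 FPKM or more in 16, 12 and 46 of 63 cells, were not counted. Of 63 Zfp42-low cells, 42 (66.7%) had all 6 at 1 FPKM or more and 17 had 5, whereas no serum cell had more than 2. The 1 female Zfp42-low cell had all 6, with 1803 FPKM of Cyp26a1 and 251.65 of Lhx1, but 0.501 FPKM of Pou5f1. Among the 78 female Epi cells that kept Zfp42, 33 had none of the 6 and the highest cell had 5.

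**Figure D2:**
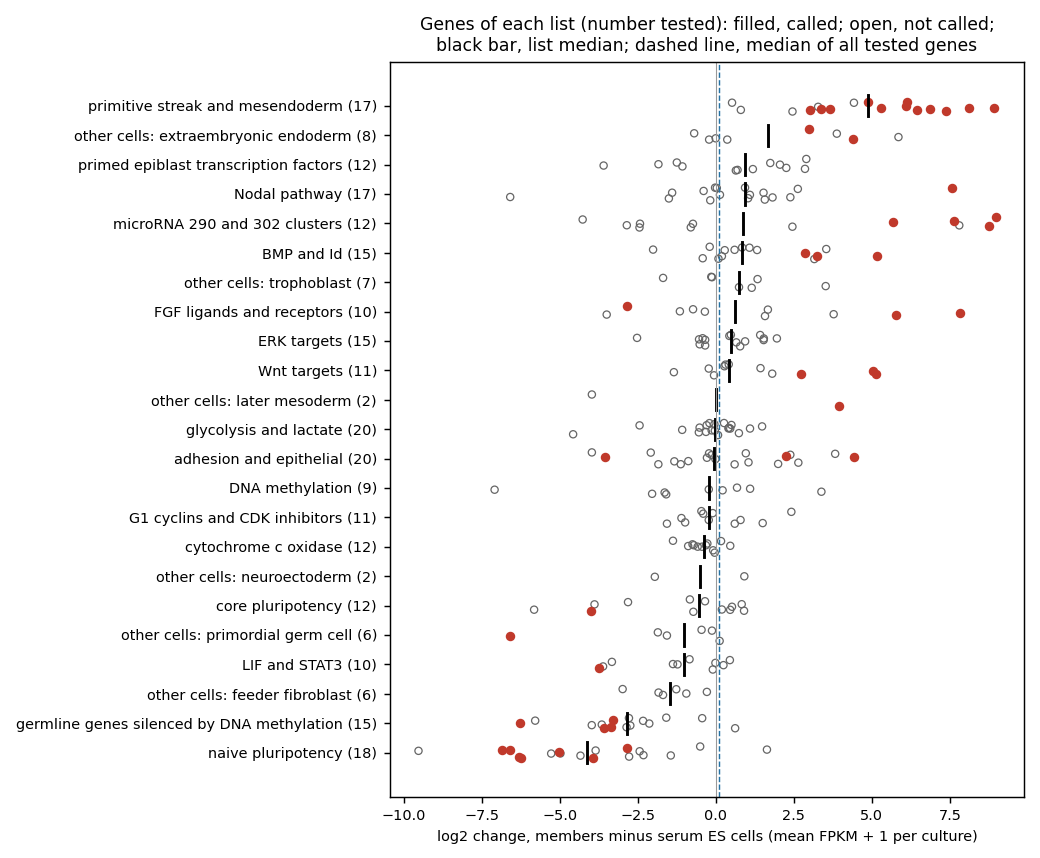
Each point is the log2 change of a gene of a list, Zfp42-low Epi cells minus serum ES cells; filled points were called, black bars are list medians and the dashed line is the median of all tested genes, 0.09. Streak genes lie at the right with a median of 4.87 and naive genes at the left with a median of -4.14; 10 streak genes passed the filter only through the Zfp42-low culture and 10 naive genes only through the ES cultures.

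Of 18 naive pluripotency genes, all of them tested, 7 were called lower, against 0.924% of all tested genes. A lower mean in Zfp42-low than in serum cells was found for 17, and 15 averaged under 1 FPKM in Zfp42-low cells. The median log2 change was -4.14, but 10 of the 18, and 4 of the 7 called, passed the filter only through the ES cultures. Dppa3 (Stella), a chromatin protein of oocytes and naive cells, was at 1 FPKM in 1 of 63 cells, with a highest value of 1.01 FPKM. In serum it averaged 88.2 and 106.3 FPKM, and its log2 change was -6.58 (SE 0.65, limma adjusted p = 0.0183). Tdh, the threonine dehydrogenase on which mouse ES cells depend, averaged 0.276 FPKM against 161.6 and 133.8. Esrrb, an orphan nuclear receptor of the naive network, averaged 0.243 against 18.24 and 18.01. Klf5 had the smallest called fall, from 24.8 and 43.4 to 3.72 FPKM, and 30 of 63 cells still had 1 FPKM or more. Fbxo15, Nr0b1 (X-linked) and Tcl1 were the other genes called lower. The blocked adjusted p of the 7 ran from 0.0529 to 0.0944.

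Some genes with large differences in level did not pass the test. Dppa5a, one of the most abundant naive transcripts, averaged 2.94 FPKM against 3063 and 2746, with a limma adjusted p of 0.111. Dppa4 averaged 0.736 against 67.2 and 65.2 FPKM (adjusted p = 0.128). The T-box gene Tbx3 was the 1 gene of the list with a higher mean in Zfp42-low cells, at 10.4 against 2.52 and 2.84 FPKM, and it was not called.

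The core pluripotency genes gave a mixed picture. Of 12 genes, 1 was called, against 2.35% of all tested genes, and the list's median log2 change was -0.53. L1td1, an RNA-binding protein, fell from 74.1 and 56.8 FPKM to 3.08 (log2 change -4.01, SE 0.55, limma adjusted p = 0.0412, blocked 0.0963). Pou5f1 ranged from 0 to 1179 FPKM with a median of 219, against medians of 620 and 488 in serum, and its log2 change of -0.83 (SE 2.03) was not called. Sox2 had a log2 change of -3.89 (SE 0.91, limma adjusted p = 0.111). Nanog averaged 12.9 FPKM ± 18.5 (SD, n = 63 cells) against 100.55 and 93.5, with a log2 change of -2.81 (limma adjusted p = 0.244), and 44 of 63 cells reached 1 FPKM. Sall4 averaged 132.2 FPKM against 94.6 and 89.5, Lin28a 27.4 against 20.3 and 27.9, and Tdgf1 (Cripto, the Nodal co-receptor) 421.6 against 300.9 and 167.8.

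Transcription factors of the primed epiblast did not pass the test. None of the 12 tested was called, against 2.35% of all tested genes, a share at which so short a list could hold none. A higher mean was found for 8 and a lower one for 4, and the median log2 change was 0.94. Otx2 averaged 172.7 FPKM ± 140.98 (SD, n = 63 cells) against 23.7 and 22.2 (log2 change 2.86, SE 0.60, limma adjusted p = 0.0942). Lef1, a transcription factor of the Wnt pathway, averaged 82.5 FPKM against 17.96 and 15.1, Hmga2 20.6 against 1.62 and 2.199, and Sall1 26.1 against 10.4 and 11.4. Tcf15 went the other way, at 0.553 against 22.4 and 14.1 FPKM.

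FGF ligands split. Fgf8 and Fgf5 were called higher and Fgf17 lower among 10 tested genes of ligands and receptors, against 2.35% called over all tested genes. Fgf8 and Fgf5 passed the filter only through the Zfp42-low culture, and Fgf17 only through the ES cultures, so their calls are a description. Fgf8, which moves mesoderm away from the streak, was at 1.11 FPKM or more in all 63 cells, with a median of 242.8 and a highest value of 2156. It averaged 0.319 and 0.915 FPKM in serum, a log2 change of 7.83 (SE 0.36, limma adjusted p = 0.00639). Fgf5 rose by 5.79 (SE 0.60, limma adjusted p = 0.0201), and Fgf17 fell from 11.6 and 15.9 to 1.02 FPKM. Fgf4, the ligand that drives ES cells out of the naive state, averaged 2.52 FPKM against 46.6 and 32.2 and was not called. The receptor Fgfr1 averaged 43.1 FPKM against 15.2 and 12.5, also not called. Blocked adjusted p for the 3 called genes ran from 0.0529 to 0.0866. None of 15 ERK target genes was called, against 2.35% of all tested genes, with a median log2 change of 0.48. Dusp6, a phosphatase that acts on ERK, averaged 85.7 FPKM against 50.3 and 38.8, and Spry2, a feedback inhibitor, 54.1 against 82.1 and 75.9.

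In the Nodal pathway 1 of 17 genes was called, against 2.35% over all tested genes. That gene, Cer1, passed the filter only through the Zfp42-low culture, so its call is a description. Cer1, a secreted antagonist of Nodal, BMP and Wnt, averaged 190.3 FPKM, ranged from 0 to 3223 with a median of 28.1, and reached 1 FPKM in 39 of 63 cells. It was listed at 0 in all male serum cells and averaged 0.00915 FPKM in female ones (log2 change 7.57, SE 0.30, limma adjusted p = 0.00624, blocked 0.0529). The ligand Nodal averaged 39.6 FPKM against 50.5 and 53.9. The inhibitors split: Lefty2 averaged 240.8 against 43.5 and 33.4 FPKM, and Lefty1 62.4 against 70.1 and 71.4, neither called. Foxh1, the partner of Smad2 on DNA, averaged 320 against 60.8 and 59.9 FPKM, and Gdf3, a ligand of the same family, 0.0243 against 78.6 and 120.98. Neither Foxh1 nor Gdf3 was called.

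Among Wnt targets 3 of 11 were called higher, against 1.43% of all tested genes. Sp5, a direct target in the streak, averaged 41.999 FPKM against 0.483 and 0.00362 (log2 change 5.14, SE 0.57, limma adjusted p = 0.0254). Nkd1, a feedback inhibitor, averaged 7.07 against 0.162 and 0.293. Dkk1, a secreted inhibitor, was found at 1 FPKM or more in 32 cells, averaged 32.1 FPKM and was listed at 0 in every serum cell. Blocked adjusted p for the 3 ran from 0.0804 to 0.0873. In the list of BMP genes 3 of 15 were called higher, against the same 1.43%. These were Smad1, which carries the BMP signal to the nucleus (29.5 against 2.79 and 1.74 FPKM), and the homeobox targets Msx1 (56.8 against 0.754 and 0.476) and Msx2 (9.69 against 0.545 and 0.415). Of these 3, 1 passed the filter only through the Zfp42-low culture. Blocked adjusted p for the 3 BMP genes ran from 0.0572 to 0.106. The Id genes, which are also BMP targets, were not called: Id1 averaged 51.04 FPKM against 62.04 and 75.9, Id2 4.38 against 20.8 and 20.5, and Id3 40.4 against 47.4 and 30.4.

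LIF supports naive cells through Stat3, and LIF is in the serum medium but is not named for Epi cells. Of 10 genes of that pathway, 1 was called, against 2.35% of all tested genes. Bcl3, a partner of NF-kappa-B proteins, averaged 0.534 FPKM and reached 1 FPKM in 3 cells, against 19.4 and 20.02 in serum (log2 change -3.76, SE 0.25, limma adjusted p = 0.00960, blocked 0.0529). The feedback inhibitor Socs3 averaged 0.868 FPKM against 26.6 and 11.8, Pim1 1.597 against 30.04 and 31.5, and Stat3 itself 7.45 against 24.8 and 14.2, none of them called.

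MicroRNAs of the miR-290 and miR-302 clusters are the most abundant ones of pluripotent mouse cells, and are known to pass from the miR-290 to the miR-302 cluster with the primed state. Their mature forms are printed because members of both clusters share a seed, the stretch that pairs with targets. The mature sequences are RefSeq's, with coordinates on GRCm38.p6, and the seed (bases 2 to 8) is in capitals. The miR-302 cluster lies at chr3:127545238-127545800 on the plus strand, within the Larp7 gene on the opposite strand. The miR-290 cluster members shown lie on the plus strand of chromosome 7.

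miR-302b-3p: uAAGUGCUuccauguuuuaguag
miR-302d-3p: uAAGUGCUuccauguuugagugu
miR-302c-3p: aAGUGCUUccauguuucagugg
miR-367-3p: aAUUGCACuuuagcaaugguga
miR-294-3p: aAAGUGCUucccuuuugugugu
miR-295-3p: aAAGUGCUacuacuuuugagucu
miR-291a-3p: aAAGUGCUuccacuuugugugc
miR-293-3p: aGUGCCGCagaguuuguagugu

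The 5 forms with the seed AAGUGCU were miR-302b-3p, miR-302d-3p, miR-291a-3p, miR-294-3p and miR-295-3p. In miR-302c-3p the same letters stand 1 base earlier, which gives the seed AGUGCUU, and miR-367-3p has the unrelated seed AUUGCAC. miR-302a-3p and miR-292a-3p are named only.

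The genes of these microRNAs were measured as fragments on their short gene bodies. Mature microRNAs carry no poly(A) tail, and which RNA gave these fragments, precursors or the overlapping Larp7 transcript, was not tested. Of 12 genes of the clusters tested, 4 were called higher, against 1.43% of all tested genes, and none lower. Of these 4, 3 passed the filter only through the Zfp42-low culture. A gene of that kind could enter the test only if it was high there, so its call is a description. Mir302b averaged 429 FPKM and reached 1 FPKM in 17 of 63 cells, with a highest value of 3877, and was listed at 0 in every serum cell (limma adjusted p = 0.00573). Mir302c averaged 498 FPKM, also in 17 cells, and was listed at 0 in every serum cell. Mir302a averaged 677 FPKM in 19 cells against 17.6 and 8.64 in serum, with 1 positive cell in each line (log2 change 5.66, SE 0.46, limma adjusted p = 0.0130). Mir367 averaged 511 FPKM in 21 cells against 0 and 5.79. Mir302d averaged 746 FPKM in 20 cells against 0 and 10.2 and was not called (adjusted p = 0.0696). Blocked adjusted p for the 4 called genes ran from 0.0529 to 0.0866, and over the alternative settings that of Mir302a reached 0.879.

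None of the 7 tested genes of the miR-290 cluster was called, against 2.35% of all tested genes, and 6 of them had lower means. Mir295 averaged 139.4 FPKM in 8 of 63 cells against 1977 in 28 of 52 male and 3691 in 49 of 68 female serum cells. Mir294 averaged 88.9 against 380 and 629 FPKM, and Mir293 79.01 against 390 and 474. Mir290a went the other way, at 17.5 against 10.4 and 0 FPKM. Larp7, which overlaps the miR-302 cluster on the opposite strand and was chosen for its position after its values were seen, averaged 66.8 FPKM against 36.9 and 49.4. In the 7-passage culture Mir302b averaged 257.7 FPKM in 8 of 41 cells, and Mir295 averaged 736. The sparse detection, in fewer than 22 of 63 cells for each gene of the miR-302 cluster, limits these values.

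**Figure D3:**
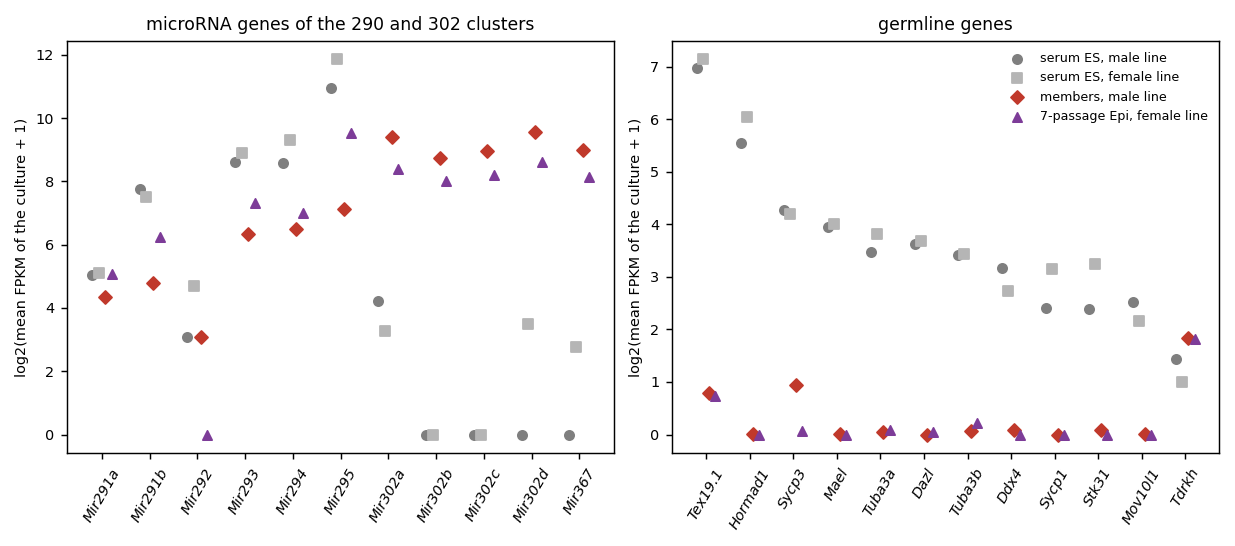
Points are the mean of a culture as log2(mean FPKM + 1), for microRNA genes (left) and germline genes (right), in serum ES cells of both lines, Zfp42-low Epi cells and the 7-passage Epi culture; symbols within a gene are offset sideways. The 5 genes of the miR-302 cluster average 429 to 746 FPKM in Zfp42-low cells and at most 17.6 in serum, and 18 of 19 germline genes average under 1 FPKM in Zfp42-low cells.

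None of 9 DNA methylation genes was called, against 2.35% of all tested genes. Dnmt3l, the cofactor of the de novo methyltransferases, averaged 0.127 FPKM and reached 1 FPKM in 2 of 63 cells, against 118.5 and 195.5 in serum (log2 change -7.09, SE 1.45, limma adjusted p = 0.0900). Dnmt3a averaged 48.4 FPKM against 260.1 and 157.2, Dnmt3b 63.2 against 87.5 and 62.8, and the maintenance enzyme Dnmt1 29.4 against 30.3 and 20.8. Tet1, which oxidises methylated cytosine, averaged 11.7 FPKM against 39.5 and 35.03 (adjusted p = 0.0557).

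Germline genes whose promoters are known to be methylated in somatic cells were nearly absent. Of all 19 on the list, 18 averaged under 1 FPKM in Zfp42-low cells and 5 were listed at 0 in every one of the 63 cells, while only 3 averaged under 1 FPKM in serum. Of the 15 tested 4 were called lower, against 0.924% of all tested genes. However, 9 of the 15, and 2 of these 4, passed the filter only through the ES cultures. The called genes were Tex19.1, a protein of germ cells and placenta (0.733 FPKM against 124.8 and 139.8, log2 change -6.26, SE 0.77, limma adjusted p = 0.0322), Sycp3, of the meiotic chromosome axis (0.913 against 18.4 and 17.3), and the testis tubulins Tuba3a (0.0391 against 10.1 and 13.2) and Tuba3b (0.0475 against 9.69 and 9.88). Tuba3a and Tuba3b are close copies, and how fragments were shared between them is not known here. Dazl, an RNA-binding protein of germ cells, was listed at 0 in all 63 cells and averaged 11.3 and 11.9 FPKM in serum. It was not called (adjusted p = 0.0582), nor was Hormad1, at 0.00629 FPKM against 46.03 and 64.7. Blocked adjusted p for the 4 called genes ran from 0.0635 to 0.0799.

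Upstream windows of 2 of these genes are shown because 10 of the 18 listed genes with a window have a hexamer there that both contain. The windows are the 250 bases before the RefSeq start on GRCm38.p6, 5′ to 3′ along the gene, with CACGTG in capitals. This E-box hexamer is bound by MAX and its partners and reads the same on both strands. Sycp3 lies on the plus strand with its window at chr10:88459337-88459586, and Hormad1 on the plus strand with its window at chr3:95559427-95559676.

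Sycp3: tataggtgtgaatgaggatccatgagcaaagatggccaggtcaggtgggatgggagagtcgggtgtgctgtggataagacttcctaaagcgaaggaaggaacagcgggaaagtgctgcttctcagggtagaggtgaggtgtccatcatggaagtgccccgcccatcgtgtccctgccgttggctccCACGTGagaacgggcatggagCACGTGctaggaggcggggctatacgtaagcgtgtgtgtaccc
Hormad1: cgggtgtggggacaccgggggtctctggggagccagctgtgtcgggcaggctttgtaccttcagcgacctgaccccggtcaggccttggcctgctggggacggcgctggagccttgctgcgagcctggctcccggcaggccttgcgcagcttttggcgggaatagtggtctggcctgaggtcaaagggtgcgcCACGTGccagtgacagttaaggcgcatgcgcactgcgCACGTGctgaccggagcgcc

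In Sycp3 the hexamer began at -64 and -43 from the start, and in Hormad1 at -57 and -20. CACGTG was found in the windows of 10 of the 18 germline genes that had one (55.6%), against 6.86% of 27025 genes and 1 of 16 streak genes (6.25%). The next highest list, the DNA methylation genes, had the hexamer in 3 of 9 (33.3%). CACGTG was absent from the windows of the called genes Tex19.1, Tuba3a and Tuba3b. Piwil2 had no window in the table. A match of letters is a description and not a measured binding site.

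Of 20 genes of cell adhesion tested, 2 were called higher and 1 lower, against 2.35% called over all tested genes, and the list's median log2 change was -0.07. Cdh2 (N-cadherin), of mesenchymal and streak cells, averaged 27.8 FPKM and reached 1 FPKM in 59 of 63 cells, against 0.277 and 0.376 in serum (log2 change 4.44, SE 0.65, limma adjusted p = 0.0462). Zeb2, a repressor of E-cadherin, averaged 6.22 against 0.529 and 0.531 FPKM. Icam1, a ligand of leukocyte integrins, fell from 20.9 and 26.03 to 1.06 FPKM. Blocked adjusted p for the 3 ran from 0.0750 to 0.109. Cdh1 (E-cadherin) was not called and varied from cell to cell: it averaged 14.1 FPKM with a median of 1.41, reached 1 FPKM in 33 of 63 cells, and was at 1 FPKM or more in all 120 serum cells, which averaged 29.6 and 24.2. Epcam averaged 70.5 against 200 and 160 FPKM, and fibronectin (Fn1) 295.3 against 54.1 and 39.7. The keratin genes Krt8 and Krt18 averaged 79.2 and 88.9 FPKM against at most 5.18 and 18.3 in serum, and neither was called.

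No gene was called among 20 of glycolysis and lactate, 12 of cytochrome c oxidase and 11 of the G1 phase, and their median log2 changes were -0.04, -0.38 and -0.23. Over all tested genes 2.35% were called. At unadjusted limma p under 0.05 there were 2944 among all tested genes. Ldha, which makes lactate, averaged 1290 FPKM against 625.5 and 339.8. Pdk1, which holds pyruvate back from the mitochondria, averaged 2.36 FPKM against 135.6 and 45.7, just outside the threshold at a limma adjusted p of 0.0503. Cox4i1 averaged 1515 against 2274 and 2686 FPKM. Cdk4 averaged 2274 against 1450 and 1536, Ccnd2 34.1 against 4.89 and 6.30, and Ccne1 82.1 against 291.9 and 205.6 FPKM.

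Levels of markers of other cell types differed from list to list. Over all tested genes 2.35% were called, 1.43% higher and 0.924% lower. In the list of 11 extraembryonic endoderm genes, 8 were tested, and Gata4 (21.9 FPKM against 0.129 and 0.0473) and Gata6 (7.28 against 0.0601 and 0.00750) were called higher. Both Gata4 and Gata6 are also genes of early mesoderm and definitive endoderm. Their blocked adjusted p was 0.0529 and 0.0874. Sox7 and Ttr were listed at 0 in every one of the 63 cells, and Afp averaged 0.00837 FPKM. The summed level of that list ran from 0 to 756 FPKM over Zfp42-low cells with a median of 53.05, against medians of 1.81 and 1.71 in serum. Sox17, an endoderm factor, averaged 63.5 FPKM through 11 cells and was not called (adjusted p = 0.0956). None of 7 tested trophoblast genes was called. Of all 8 on that list, 5 had a higher mean in Zfp42-low than in serum cells and 3 a lower one. Only 2 of the 8 averaged under 1 FPKM in Zfp42-low cells, Cdx2 at 0.0539 FPKM and Elf5 at 0.118. Hand1, also a mesoderm gene, averaged 10.5 against 0.00866 and 0.00319. No gene was called among 2 tested neuroectoderm and 6 tested fibroblast genes. Sox1 averaged 0.0177 FPKM and Pax6 0.121. The summed level of the 10 fibroblast genes had a median of 3.39 FPKM, between the medians of male (0.713) and female (6.02) serum cells. Its highest value was 37.98 FPKM, against highest values of 438 and 696 in serum. Of 6 later mesoderm genes 2 were tested, and 1 of these was called higher. This was Kdr (Flk1), the receptor that marks the progenitors of blood and vessels, at 14.5 FPKM against 0.00480 and 0.00183 (log2 change 3.95, SE 0.30, limma adjusted p = 0.0119, blocked 0.0635). Kdr passed the filter only through the Zfp42-low culture, so its call is a description. Foxf1 and Hand2 each reached 1 FPKM in 8 cells. Among 6 primordial germ cell genes only Dppa3 was called, and it was lower, having passed the filter only through the ES cultures.

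Zfp42-low cells were not alike. These correlations run over 63 cells of 1 culture on log2(FPKM + 1) values, share library depth and the title runs, and describe this culture only. Among 9 genes set for this purpose, T went with Pou5f1 (Pearson r = 0.60, Spearman rho = 0.74, and rho = 0.68 and 0.82 within the lower and higher runs) and with Nanog (r = 0.43, rho = 0.51). Mixl1 went with Eomes (r = 0.72, rho = 0.71) and Otx2 with Mixl1 (r = 0.59, rho = 0.49) and Fgf5 (r = 0.51, rho = 0.48, and rho = 0.24 and 0.62 within the runs). Otx2 ran against Pou5f1 (r = -0.40, rho = -0.44) and T (r = -0.31, rho = -0.30, and rho = -0.50 and -0.07 within the runs). For the streak genes T and Mixl1 r was -0.05 and rho 0.01.

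Further pairs were chosen after the values were seen. E-cadherin and Kdr ran against each other in level, although 15 cells had both, which was 45.5% of the 33 Cdh1 cells and 34.1% of the 44 Kdr cells. Cdh1 ran against Kdr (r = -0.73, rho = -0.70) and with the tight junction gene Cldn7 (r = 0.75, rho = 0.70) and Epcam (r = 0.63, rho = 0.62). The endoderm genes kept together, since 10 of the 11 cells with Sox17 also had Foxa2, 10 had Cdh1 and 10 had the claudin Cldn6. In turn, 10 of the 16 Foxa2 cells (62.5%) had Sox17. Foxa2 ran against Mesp1 (r = -0.68, rho = -0.55), while Mesp1 went with Tbx6 (r = 0.68, rho = 0.58), and Kdr with Gata4 (r = 0.62, rho = 0.61) and Msx1 (r = 0.53, rho = 0.56). Otx2 went with Gsc (r = 0.76, rho = 0.81) and Lhx1 (r = 0.72, rho = 0.71). Mixl1 went with Msx1 (r = 0.71, rho = 0.76).

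**Figure D4:**
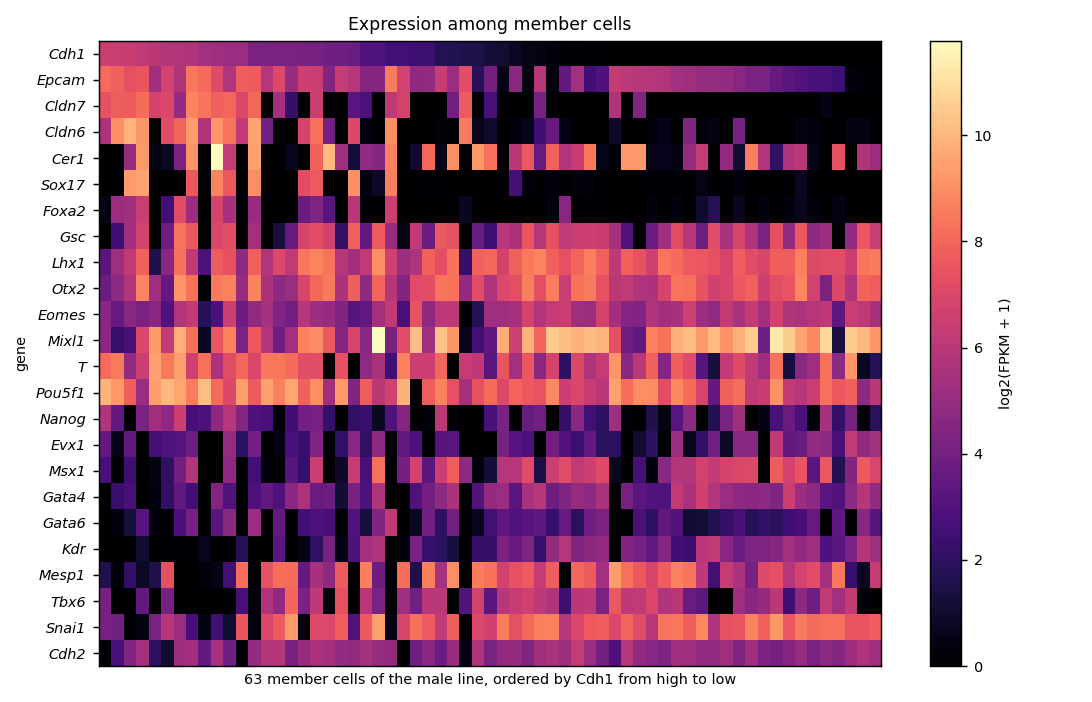
Columns are the 63 Zfp42-low cells of the male line ordered by Cdh1 from high to low, rows are genes, and colour is log2(FPKM + 1). Cdh1, Cldn7, Sox17 and Foxa2 are brightest in cells at the left, Kdr in cells at the right, while Lhx1, Otx2 and Eomes are bright in nearly every cell.

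The female Epi culture of 7 passages gives the same genes in cells of the other line that the choice did not use. Zfp42 was below 1 FPKM in 38 of its 41 cells. Fgf5 averaged 119.7 FPKM and reached 1 FPKM in 38 cells, T 147.4 in 30 cells, Mixl1 129.8 in 27 cells and Cyp26a1 251.9 in 31 cells. Of the 17 tested streak genes, 16 had a higher mean there than in female serum cells, and all 18 tested naive genes had a lower one. Some genes differed from the Zfp42-low cells of the male line. Mesp1 and Lhx1 were below 1 FPKM in most 7-passage cells, but reached it in 51 and 63 of 63 Zfp42-low cells. Cdh1 reached 1 FPKM in most 7-passage cells, against 33 of 63 Zfp42-low cells. Utf1 averaged 323.9 FPKM in the 7-passage culture against 10.3, Krt8 639 against 79.2, Bmp7 (a BMP ligand) 2.03 against 28.9, and Kdr 0.854 against 14.5. Passage, line and sex, and table cannot be told apart in these differences, which carry no test.

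E5.5 epiblast of male embryos had intermediate levels of several of these genes. Fgf5 averaged 90.97 FPKM there, Otx2 144.04, T 21.2, Mixl1 68.4 and Cyp26a1 54.1. Dnmt3b averaged 788 FPKM, against 63.2 in Zfp42-low cells, Utf1 761 against 10.3, and Dnmt3l 17.3 against 0.127. Lhx1 averaged 6.82 FPKM against 184.9 and Snai1 37.7 against 185.1. These values come from another table and other parents, and no test was made.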

How the data were processed

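Per the labels' protocols, SMART-seq2 libraries of single cells were tagmented with Tn5. The files hold FPKM per gene for each cell, made and deposited by the authors with STAR 2.4.1, Cufflinks and Cuffnorm 2.2.1 on mm10, per the submitters' processing notes; the annotation and cell filters are not given in the sources used here. FPKM values were averaged over the cells of a culture. Depth is unknown, and intervals cover counting of cells only. Symbols and positions came from GENCODE (GRCm38), matched by ID for 42462 of 43628 genes. limma 3.58.1 (trend = TRUE, R 4.3.3) was fitted to log2(mean FPKM + 1) of 7 cultures with a term for each state (residual degrees of freedom 3), for genes averaging 1 FPKM or more, with Benjamini-Hochberg adjustment. The method was tested on simulated data. The cells, gene lists, tests and alternatives were chosen with earlier results of these data known. Lines pair across states by their labels, and the differences between the lines correlated across states with r of 0.06 to 0.14. Named genes were Zfp42 and the 4 markers, from each list up to 6 called genes and up to 3 uncalled ones of at least 20 FPKM, and the 10 largest rises and falls of at least 10 FPKM. List genes outside that rule (the marker lists of other cells, Wnt3 to Hhex, Tbx3, Tet1, Dazl, Bmp7 and the like) and Gm42418 were named after their values were seen. Shares have exact Clopper-Pearson 95% intervals.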

Additional observations from a re-analysis of the deposited data

How the results depend on the processing

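Alternatives moved the share of tested genes called but reversed no direction among the 49 genes recomputed. Of these, 45 were called in the main fit and many were picked for large changes, so their direction could hardly reverse. Only 45 of the 49 were present with the filter at 5 FPKM, and likewise with the mean of log2 values. Against 1.43% called higher and 0.924% lower, no filter on low values gave 1.31% higher (421 genes, from more genes tested) and 0.442% lower, a filter at 5 FPKM 1.14% and 1.31% (from fewer), and rescaling each cell to a sum of 1000000 gave 2.67% and 1.35%. The mean over cells of log2(FPKM + 1) gave 2.83% higher and 3.29% lower, and upper-quartile scaling 1.85% and 1.85%. The lower run of title numbers gave 0.746% higher and 0.432% lower, and the higher run 1.39% and 0.598%. The female Zfp42-low cell as a second sample gave 1.02% higher and 1.6% lower. A Zfp42 threshold of 5 FPKM with the female cells as a second sample, chosen after seeing the data, gave 0.873% and 0.694%. With line as a replicate block 0% were higher and 0% lower (2797 genes at unadjusted p under 0.05), as in a fit of the Zfp42-low and serum cultures alone (0% and 0%). Leaving out 1 culture at a time gave 0 to 4.60% higher and 0 to 3.26% lower. The share of calls that were higher was 60.7%, and 48.4% with a pseudocount of 0.1, 74.8% with no filter, 46.6% with the filter at 5 FPKM, 46.2% with the mean of log2 values, 50.1% with upper-quartile scaling and 38.96% with the female cell. The block and each omission of an ES culture ended the calls of all 45 called genes among the 49; the cause was not tested. The lone Zfp42-low culture could not be left out.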

Other observations

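Other genes called higher, chosen after their values were seen, included a further FGF ligand and a chemokine receptor. Of all higher calls, 46.2% passed the filter only through the Zfp42-low culture. The 3 genes given here averaged under 1 FPKM in serum, so their calls are a description. Fgf3, a ligand expressed at the streak, averaged 58.5 FPKM and reached 1 FPKM in 42 of 63 Zfp42-low cells, against means of 0.763 and 0.493 FPKM in male and female serum cells (log2 change 5.20, SE 0.59, limma adjusted p = 0.0265, blocked 0.0839). Cxcr4, which guides migrating mesoderm and endoderm cells, averaged 69.7 FPKM in 59 cells against 0.132 and 0.281 (log2 change 5.87, SE 0.70, limma adjusted p = 0.0300, blocked 0.0692). Aplnr, the apelin receptor of mesoderm leaving the streak, averaged 175.2 FPKM in 59 cells against 0.00205 and 0 (limma adjusted p = 0.00624, blocked 0.0529). In the 7-passage female culture these 3 genes averaged 7.73, 14.4 and 39.6 FPKM. The Nodal transcript and Mesp1 were opposed among Zfp42-low cells (r = -0.67, rho = -0.70 over 63 cells, and rho = -0.70 and -0.72 within the lower and higher runs of title numbers), a pair picked after the values were seen and given with no test.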
